A study of Mus musculus with 1 sample.

Results

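The proteasome subunit genes of 1 mouse fibroblast library are described here. They were taken by name, as every gene of the deposited table whose symbol starts with Psm, a letter from a to g and a number, without the 3 inducible catalytic genes Psmb8, Psmb9 and Psmb10. The rule found 46 of the 23386 genes in the table, and no measured value entered it. They comprise 8 alpha and 8 beta genes of the 20S core, 6 ATPase and 14 non-ATPase genes of the 19S particle, 4 activators, the inhibitor Psmf1 and 4 assembly chaperones. The remaining gene, Psmc3ip, is named for its partner Psmc3, acts in meiotic recombination and is not known as a part of the proteasome.

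The library was made from total RNA of a fibroblast culture expanded in vitro from normal pancreas, in a series set up to compare tumour-derived with normal pancreas fibroblasts. Its labels give a mixed C57BL/6 and BALB/c background and the genotype tf1acre-;KrasWT;Tgfrb2flox/flox, a Cre-negative animal, with no treatment and no age. The value column carries a code for cancer-associated fibroblasts, which disagrees with the label, so the sample is named here only as the library labelled normal fibroblast. Only this library was analysed here, so no difference between conditions was measured and no p-value is given. The table held 52494688 recovered reads. Intervals are exact 95% Poisson intervals, which cover counting error only, since reads are not independent molecules, and nothing is known here of the spread between cultures.

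The 26S proteasome is the protease that breaks down proteins marked with ubiquitin chains. Its barrel, the 20S core, has outer rings of alpha subunits that gate the channel and inner rings of beta subunits, of which Psmb5, Psmb6 and Psmb7 cut peptide bonds. The 19S particle caps the barrel: its ring of ATPases unfolds the substrate, and its other subunits bind the chain and remove it. Each 20S and 19S subunit is held in a fixed position of the assembled particle.

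The labelled cell type was checked against marker genes. All 9 fibroblast markers had at least 10 reads, with levels between 52.3 RPKM (Pdgfra) and 3126 RPKM (Acta2), where RPKM is reads per 1000 bases of transcript per 1000000 reads. The endothelial markers Pecam1 and Cdh5 and the leukocyte markers Ptprc and Adgre1 lay at or below 0.218 RPKM, and the 4 epithelial markers between 0.570 RPKM (Epcam) and 7.03 RPKM (Krt19). The mesothelial markers Wt1, Upk3b and Msln had 31.5, 41.0 and 41.9 RPKM, and the acinar enzyme genes Cpb1 and Pnlip 32.1 and 46.0 RPKM, while the acinar factor gene Ptf1a had 0.0758 RPKM. Other cells can contribute to a bulk library, and their part in the proteasome levels was not tested.

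Proteasome genes were present almost without exception and mostly at high levels. Of the 46 genes, 45 had at least 10 reads, the minimum for a gene to count as detected, against 67.6% of the 20559 protein-coding genes in the table. Their median level was 45.5 RPKM, against 7.50 RPKM for detected protein-coding genes, a difference of medians of 2.52 on the log2(RPKM + 0.5) scale. Above that median of 7.50 RPKM lay 41 of the 46, against 34.3% of all protein-coding genes with a length. Above the 75th percentile of detected protein-coding genes, 19.1 RPKM, lay 32 of the 46, against 25% of the detected genes by construction. Together they took 176037 reads, or 0.335% of the library.

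**Figure D1:**
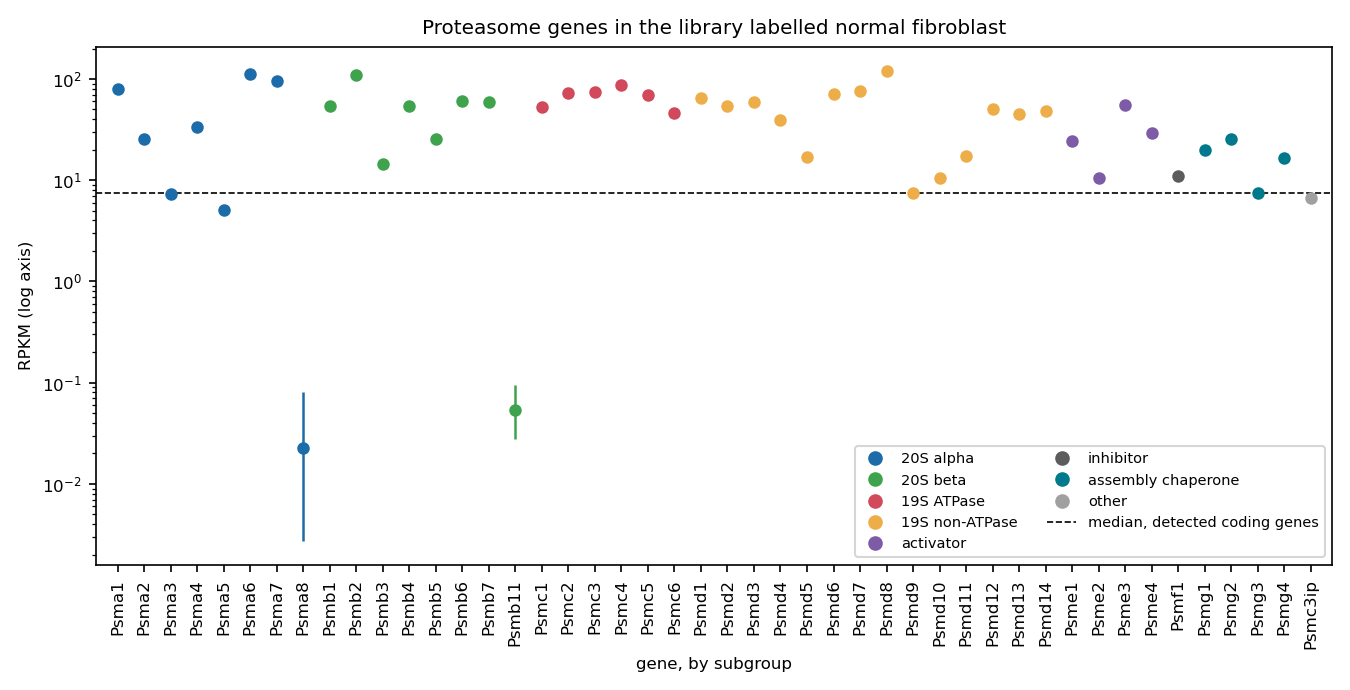
RPKM of each of the 46 genes (vertical log axis) in order of subgroup (horizontal axis, colours), with exact 95% Poisson intervals that are mostly smaller than the points; the dashed line is the median of detected protein-coding genes, 7.50 RPKM. The 6 ATPase genes sit between 46.0 and 87.4 RPKM, the alpha genes spread from Psma6 at 111 RPKM to Psma5 at 5.06 RPKM, and the tissue-restricted Psma8 and Psmb11 lie far below all others.

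The alpha genes of the 20S core spanned the widest range among the standard subunits. Psma6 (GRCm38 chromosome 12, 55384222 to 55418459) was highest, with 6067 reads, or 111 RPKM (interval 108 to 114). Psma7 followed at 94.5 RPKM (91.8 to 97.3) and Psma1 at 79.1 RPKM (76.9 to 81.3). These are structural subunits of the outer ring, as are Psma4 at 33.8 RPKM and Psma2 at 25.7 RPKM. Per length, the lowest standard subunits of the core were also alpha genes: Psma3 had 1104 reads, or 7.39 RPKM (6.96 to 7.84), and Psma5 (chromosome 3, 108256926 to 108279952) had 329 reads, or 5.06 RPKM (4.53 to 5.64). The fold between Psma6 and Psma5 was 21.9, although the assembled ring holds their proteins in equal number. The places of Psma2 and Psma3 depend on the length used, because their transcripts in the annotation have 2911 and 2846 bases. By reads alone Psma3 had 21.0 reads per 1000000 and was above the beta gene Psmb3 at 11.0. Per kilobase of coding sequence they had 27.5 and 17.8. Psma5 was the lowest standard core gene on each of these scales. With only unshared windows as length Psma3 was lowest instead, at 9.48 RPKM. For Psma2, per kilobase of coding sequence the level was 107 reads per 1000000 reads, against 116 for Psma7.

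The eighth alpha gene was nearly silent. Psma8 encodes the form that takes the place of Psma7 in testis, and it had 2 reads, or 0.0225 RPKM (0.00273 to 0.0813). That count lies under the 3 reads that a count of 0 would allow, so its presence was not detectable at this depth. Its ratio to Psma7 was 0.000238 per length (exact interval of the counts 2.88e-05 to 0.000861).

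Among the beta genes, the non-catalytic Psmb2 (chromosome 4, 126677637 to 126709715) was highest, at 109 RPKM (106 to 112). The catalytic genes Psmb6 and Psmb7, whose products cut after acidic and after basic residues, were close to each other at 60.0 RPKM (57.7 to 62.4) and 58.6 RPKM (56.7 to 60.5), intervals that overlap; per kilobase of coding sequence they were further apart, at 67.1 and 81.8 reads per 1000000 reads. Psmb5, which carries the chymotrypsin-like activity, stood lower at 25.7 RPKM (24.3 to 27.2). The non-catalytic Psmb4 and Psmb1 had 54.6 and 53.6 RPKM, again with overlapping intervals, but 81.6 and 131 reads per 1000000 reads per kilobase of coding sequence, and Psmb3 was lowest among the standard beta genes at 14.3 RPKM (13.2 to 15.5). Psmb11, the catalytic subunit known from thymic cortical epithelium, lies next to Psmb5 on chromosome 14 (54625310 to 54629556, and 54614120 to 54617995 for Psmb5). It had 12 reads, or 0.0538 RPKM (0.0278 to 0.0940), and was detected at 10 reads but not at 50.

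The inducible genes that the rule leaves out gave a contrast to the catalytic ones. In immunoproteasomes, which interferon induces, Psmb9 replaces Psmb6, Psmb10 replaces Psmb7 and Psmb8 replaces Psmb5. Psmb6 had 2515 reads and Psmb9 33, a ratio per length of 129 (exact interval 91.7 to 188), against 76.2 by reads alone and 70.1 per coding length. Per length, Psmb5 stood 9.63-fold above Psmb8 (8.36 to 11.1), at 25.7 against 2.67 RPKM; the ratio was 5.32 by reads and 5.56 per coding length, and Psmb5 had 51.4 RPKM, against the same 2.67 RPKM for Psmb8, when only transcript stretches not shared with other genes were counted as length. The smallest gap was between Psmb7 and Psmb10, 4.49-fold (4.17 to 4.84), at 58.6 against 13.0 RPKM, and it was the smallest on every one of these scales. Summed over each trio, the standard genes had 144 RPKM and the inducible genes 16.2 RPKM, a ratio of 8.92, and the inducible genes held 10.1% of the sum of all 6. In Psmb9 the exons overlap those of Tap1 on the other strand, and a strand setting of the counting was not given in the sources used here.

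The 6 ATPase genes of the 19S ring were the most even subgroup of more than 1 gene. Psmc4 had 87.4 RPKM (85.3 to 89.5), Psmc3 73.6, Psmc2 73.5, Psmc5 69.6, Psmc1 53.2 and Psmc6 46.0 RPKM (44.8 to 47.3). Their products form a single ring with each ATPase in it once. The highest was 1.90-fold above the lowest, and the standard deviation over the 6 genes was 0.34 on the log2(RPKM + 0.5) scale. The intervals of Psmc2 and Psmc3 overlap almost completely, and the step from Psmc4 to the next is larger than counting error.

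Of the 14 non-ATPase genes of the 19S particle, 11 encode stable subunits and 3 encode chaperones that leave once the base is built. Psmd8 (chromosome 7, 29174187 to 29180673), a lid subunit, was highest of all 46 genes, with 9430 reads, or 119 RPKM (116 to 121). The lid genes Psmd7 and Psmd6 had 76.7 and 71.8 RPKM. Psmd1 and Psmd2, the large scaffold subunits of the base, had 65.4 and 54.5 RPKM. Their order turned with only the 50-base windows not shared with other genes as length, at 65.4 and 72.8 RPKM. By reads alone, without division by length, Psmd1 led all 46 genes at 204 reads per 1000000, and per kilobase of coding sequence Psme3 led at 192. Psmd14, the deubiquitinase that removes the ubiquitin chain, had 48.3 RPKM (46.8 to 49.9), and the ubiquitin receptor Psmd4 39.5 RPKM (38.0 to 41.0). The remaining lid genes Psmd3, Psmd12 and Psmd13 lay between 45.0 and 58.6 RPKM. Psmd11 was the exception among these 11 stable subunits, at 17.5 RPKM (16.8 to 18.1), below every other one by more than the counting error. By reads alone it had 49.7 reads per 1000000 (47.8 to 51.7), overlapping Psmd4 at 52.6 (50.7 to 54.6).

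The medians of the assembly helpers were lower than those of the subunits that stay. The 3 base chaperones had a median of 10.4 RPKM and the 4 Psmg genes of 18.2 RPKM, against 54.1 RPKM for the 14 standard core genes and 58.6 RPKM for the 17 stable 19S subunits; the ranges overlap, since Psma5, Psma3, Psmb3 and Psmd11 lay below Psmg1 and Psmg2. The base chaperones Psmd5, Psmd10 and Psmd9 had 17.0, 10.4 and 7.52 RPKM. Psmd5 (16.5 to 17.6) and Psmd11 (16.8 to 18.1), the lowest stable 19S subunit with a Psm name, did not differ beyond counting error. Their order turned by reads alone, at 74.8 against 49.7 reads per 1000000, and per kilobase of coding sequence, at 49.5 against 39.3. Psmg1 and Psmg2, which act as a pair in building the alpha ring, had 19.9 and 25.8 RPKM. The second pair, Psmg3 and Psmg4, had 7.53 and 16.6 RPKM, with intervals of 6.76 to 8.36 and 15.2 to 18.2 that do not overlap. Without division by length the order of the base chaperones was Psmd5 at 74.8 reads per 1000000, Psmd9 at 19.5 and Psmd10 at 15.3. Psmc3ip, the meiotic gene that matches by name only, had 6.65 RPKM (6.05 to 7.30). Around the median of detected genes, Psmg3 and Psmd9 lay just above and Psma3 just below.

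The activators differed by kind. Psme3, the nuclear activator PA28 gamma, had 55.0 RPKM (53.8 to 56.2), and Psme4, the large nuclear activator PA200, 29.1 RPKM (28.5 to 29.7). Psme1 and Psme2 form the cytosolic, interferon-inducible activator together; Psme1 had 24.2 RPKM (23.0 to 25.5), 2.32-fold above Psme2 at 10.4 RPKM (9.56 to 11.3). The ratio was 2.65 by reads alone and 2.54 per coding length. Of the 50-base windows of their transcripts, 14.1% in Psme1 and 55.6% in Psme2 recur in transcripts of other genes. With only the unshared windows as length, which assumes that no read from a shared window was counted, the gap was smaller, at 28.2 and 23.5 RPKM. With 30-base windows the levels were 31.3 and 28.8 RPKM. The part of copies in the gap was not tested. Psme3 stood 2.27-fold above Psme1 (2.15 to 2.41) per length, 5.44-fold by reads alone and 5.33-fold per coding length. The order of the nuclear activators depends on the length, because Psme4 had 9922 reads and Psme3 7689 while its transcript is longer. Psmf1, an inhibitor of the core in vitro, had 11.0 RPKM (10.5 to 11.4).

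The core and the particle as wholes were close in level. Over the 14 standard genes of the 20S core the median was 54.1 RPKM, and over the 17 stable subunits of the 19S particle it was 58.6 RPKM. The spread was not alike: the standard deviation on the log2(RPKM + 0.5) scale was 1.37 in the core and 0.59 in these 17 particle genes. The 17 are those with a Psm name. Adrm1 at 5.45 RPKM, below all 17, and Shfm1 at 31.0 RPKM also encode 19S subunits and are not in this spread. With all 16 core genes and all 20 Psmc and Psmd genes the medians differed by -0.34 on that scale, and without Psma8 and Psmb11 by 0.0074. The sign therefore depends on which genes are counted: the 14 core genes were below the 17 stable particle genes and level with the 20 that include the base chaperones.

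The low core genes, apart from Psma2, were those with close copies elsewhere in the genome. Processed copies of proteasome transcripts lie in the mouse genome as pseudogenes, and a short read from a shared stretch matches several places. For each gene, the share of 50-base windows of its transcript that recur elsewhere was computed. A window counted when it was found letter for letter in a GENCODE transcript of another gene at another place. Only the 46 genes and the inducible catalytic genes were searched, so the counts below stand without a share over all genes. Of the 31 standard subunits, 14 had any such window and 8 had at least 10% of them, a limit chosen after the values were seen: Psma3, Psma4, Psma5, Psmb3, Psmb5, Psmc1, Psmd2 and Psmd11. These 8 had levels of 5.06 to 54.5 RPKM with a median of 21.6, and the other 23 had 25.7 to 119 RPKM with a median of 65.4. In the 20S core, the 5 genes of this kind had a median of 14.3 RPKM and the other 9 a median of 60.0 RPKM. Across the 14 core genes, which share 1 library, Spearman's rho between the share and the level was -0.87, and Pearson's r with the log2 level was -0.78; across the 17 particle genes they were -0.59 and -0.39. Over all 46 genes, which include Psma8 and Psmb11 at nearly no reads and with few or no shared windows, they were -0.42 and -0.14. Genes are not independent replicates, and no p is given.

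Among the standard subunits the largest shares were 55.8% for Psmb3 with 7 pseudogenes, 54.5% for Psma5 with 2, and 50% for Psmb5 with 2; Psma3 had 22.0% and Psma4 25.6%. Psma6, Psma7, Psma1, Psmb2 and Psmb4 had none. The coding sequence of Psma5 has 723 bases, of which 715 are identical in the copy Gm8394 on chromosome 10 (85313488 to 85314439) and 713 of 720 aligned in Gm12989 on chromosome 4 (135715868 to 135716598). Shown to let the likeness be seen, bases 331 to 420 of that coding sequence, counted from the start codon, have the same 90 letters in both copies.
Psma5: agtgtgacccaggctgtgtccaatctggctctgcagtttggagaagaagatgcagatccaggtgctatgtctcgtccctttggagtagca
Bases 181 to 270 of the Psmb5 coding sequence, likewise, are identical in Gm3375 on chromosome 7 and differ at 2 letters, in capitals, in Psmb5-ps on chromosome 11.
Psmb5: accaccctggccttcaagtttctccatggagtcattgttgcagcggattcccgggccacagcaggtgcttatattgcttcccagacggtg
Psmb5-ps: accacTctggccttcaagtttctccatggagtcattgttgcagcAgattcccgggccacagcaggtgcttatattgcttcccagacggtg
The treatment of reads with several matches was not given in the sources used here, and their part in these levels was not tested. Dividing by the length of unshared windows only, which assumes that no read from a shared window was counted, gave 51.4 RPKM for Psmb5, 45.4 for Psma4, 32.3 for Psmb3, 11.1 for Psma5 and 9.48 for Psma3. On that scale Psmb5 came near Psmb6 at 61.7 RPKM, while Psma5 and Psma3 stayed the lowest standard core genes. With windows of 30 bases their order turned, at 82.2 RPKM for Psmb5 against 71.8 RPKM for Psmb6, and Psma5 and Psma3, at 14.3 and 10.2 RPKM, were again the lowest; the read length was not given in the sources used here. The levels of these genes are therefore uncertain. Beyond copies, the exons of 10 of the 46 genes overlap those of another gene at their own place. Among them are Psmb7 with Nek6 and Psmd13 with Sirt3 on the other strand, and Psmd1 with Gm21972 on the same strand. The share of all genes with such an overlap was not computed.

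**Figure D2:**
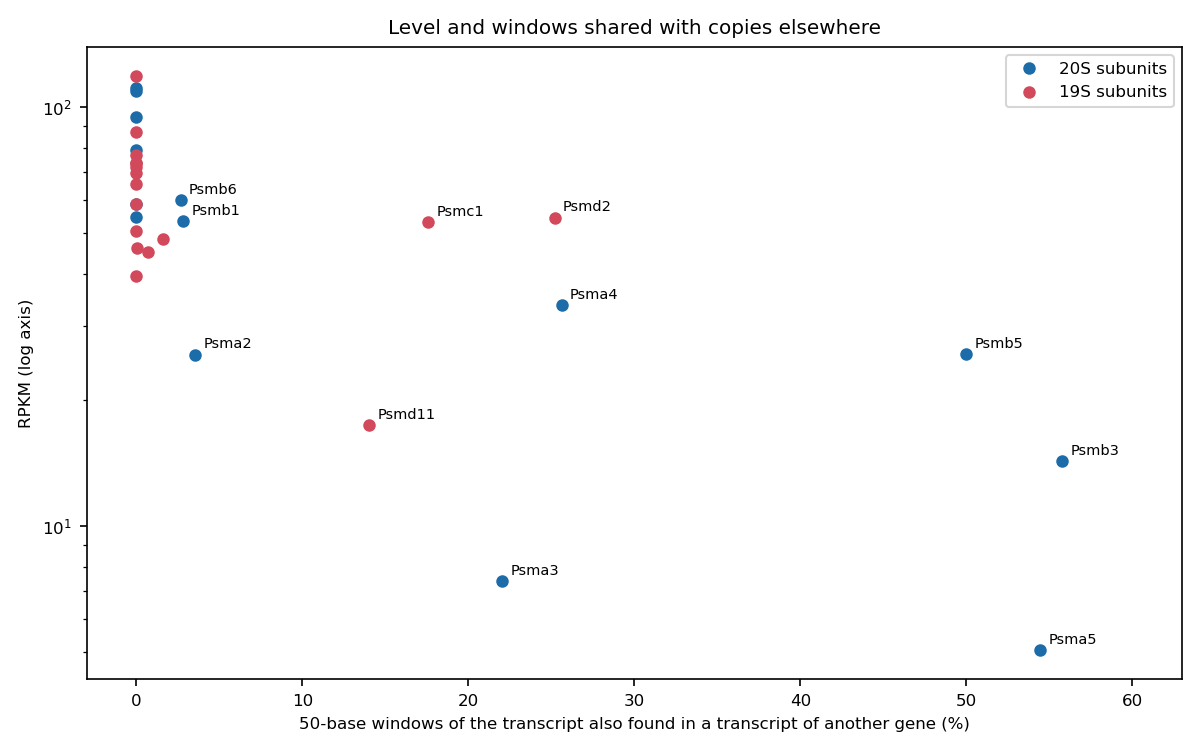
RPKM (vertical log axis) of the 31 standard subunits against the percentage of 50-base transcript windows that recur in a transcript of another gene elsewhere (horizontal axis); blue points are 20S and red points 19S genes, and those at 2% or more are named. Points without shared windows lie between 39.5 and 119 RPKM, and the 3 core genes at 50% or more, Psmb5, Psmb3 and Psma5, lie at 25.7, 14.3 and 5.06 RPKM.

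The measured parts and partners of the proteasome without a Psm name were all detected. All 18 of the measured genes of this list, out of 19 names, had at least 10 reads, against 67.6% of protein-coding genes. Of the 18, 16 exceeded the 7.50 RPKM median, against 50% of detected protein-coding genes by construction. Their own median was 30.8 RPKM. Rad23b, a shuttle that brings ubiquitinated proteins, led at 72.9 RPKM, followed by Akirin2, which guides proteasomes into the nucleus, at 49.5 RPKM and the shuttle genes Ubqln1 and Ubqln2 at 48.6 and 46.1 RPKM. The lowest per length were Ddi2 at 4.96 RPKM and Adrm1, a ubiquitin receptor of the 19S particle, at 5.45 RPKM. Adrm1 was also lowest by reads, at 8.36 reads per 1000000, but Ddi2, with a transcript of 9553 bases, had 47.4, above Uchl5 at 30.3 and Ubqln4 at 40.2. Shfm1, the smallest lid subunit, had 31.0 RPKM, and Pomp, which matures the core, 28.6 RPKM.

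Other complexes of fixed composition in the same library set the scale. The median of the 46 proteasome genes, 45.5 RPKM, was below the 128 RPKM of the 7 CCT chaperonin genes with a length, a difference of -1.48 on the log2(RPKM + 0.5) scale. Against the COP9 signalosome, whose subunits are related to those of the 19S lid and whose median was 42.8 RPKM, the difference was 0.09. Against eIF3, also a relative of the lid, at 66.3 RPKM it was -0.54, and against the 83 ribosomal protein genes at 57.1 RPKM it was -0.32. Windows shared with copies elsewhere were not computed for the genes of these other complexes, so the part of copies in these differences was not tested. In spread, the 17 stable 19S subunits with a Psm name, without Adrm1 and Shfm1, had a standard deviation of 0.59, near the chaperonin at 0.55. The 14 core genes, 5 of them with at least 10% shared windows, were at 1.37, between the COP9 signalosome at 0.96 and eIF3 at 1.54. The part of copies in these spreads was not tested either. The ribosome was at 1.89, in a list that keeps nearly silent genes such as Rpl39l, while Psma8 and Psmb11 are not among the 14. With coding length the core was at 1.26, above both eIF3 and the signalosome at 0.99. The signs for the signalosome and the ribosome turn with the length used: without division by length the differences were -0.015 and 0.46.

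**Figure D3:**
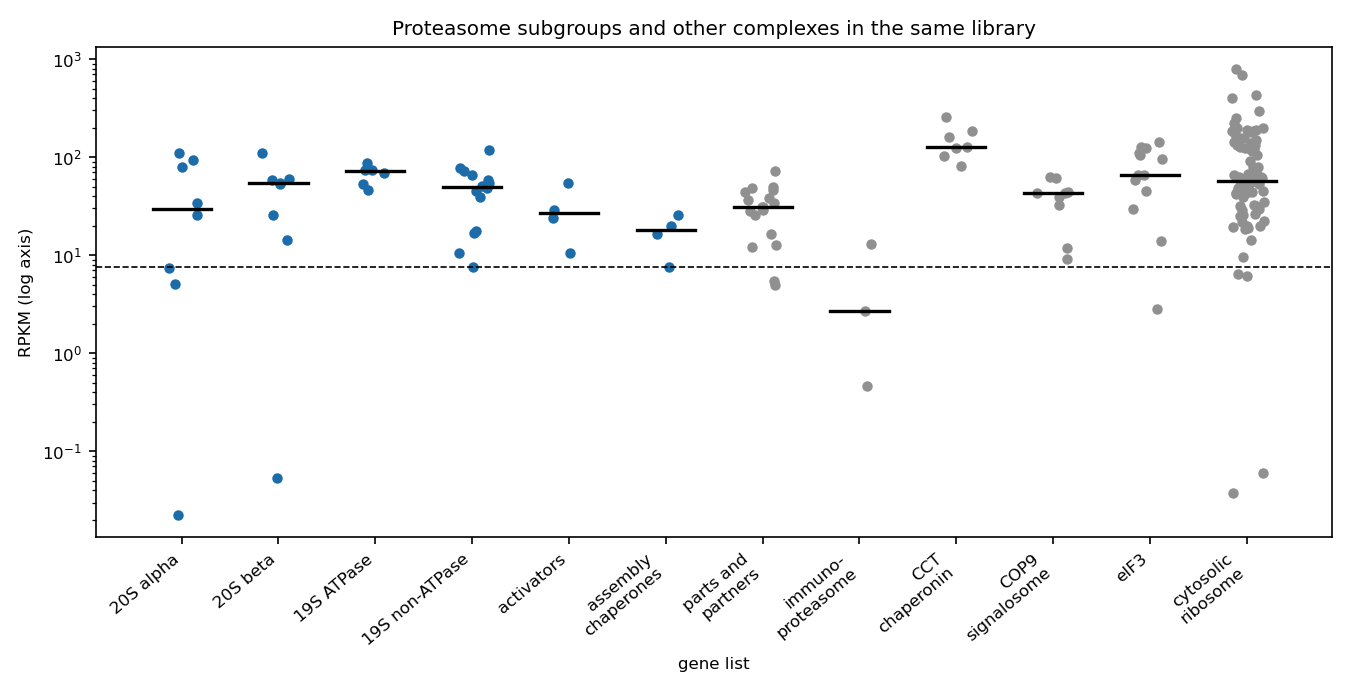
RPKM (vertical log axis) of the genes of 6 proteasome subgroups (blue points) and of 6 other lists (grey points); each point is 1 gene, short black lines are medians and the dashed line is the median of detected protein-coding genes, 7.50 RPKM. The ATPases form a tight group around 71.5 RPKM, below the CCT chaperonin at 128 RPKM and above the immunoproteasome genes at 2.67 RPKM; Rpl39l, with 0 reads, is not drawn.

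The factors that raise proteasome genes when proteasome activity falls were also measured. Nfe2l1, the membrane-bound factor that drives this response in mammals, had 44.9 RPKM (44.1 to 45.7), and its relative Nfe2l2 69.1 RPKM. Nfe2l3 had 1.65 RPKM. The enzymes that release Nfe2l1 protein from its membrane form had lower transcript levels, Ngly1 at 9.37 RPKM and the protease gene Ddi2 at 4.96 RPKM. The partners Mafg, Mafk and Maff had 3.02, 7.36 and 13.4 RPKM and Stat3 41.2 RPKM. All 13 genes of this list had at least 10 reads, against 67.6% of protein-coding genes. Of the 13, 8 exceeded 7.50 RPKM, or 61.5%, near the 50% of detected protein-coding genes that do so by construction.

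Promoter windows from RefSeq (GRCm38.p6; 250 bases before to 50 after the start) were found for 38 of the 46 genes, in 41 windows. Each motif was searched on both strands, and the motifs were chosen with these data in view. The core of the antioxidant response element, TGACNNNGC, which NFE2L1 and NFE2L2 bind, was in windows of 6 genes, Psmb5, Psmb6, Psmc6, Psmd9, Psmd12 and Psme4, or 14.6% of the windows, against 12.4% of all 32851 windows; by gene the direction turned, with 15.8% of the 38 genes against 17.0% of detected protein-coding genes. The ETS core CCGGAAG was in 39.0% of the windows, against 8.86% of all windows; among genes it was in 15 of 38, or 39.5%, against 18.3% of detected protein-coding genes. By particle, it was in 9 of the 14 stable 19S genes with a window and in 1 of the 11 standard 20S genes, Psma6. CCAAT was in 34.1% of windows against 37.4%, TATAAA in 7.32% against 13.6%, GGGCGG in 56.1% against 35.7% and GCATGCG in 7.32% against 3.58%. The GGGCGG share of member genes, 57.9%, was below the 67.5% of detected protein-coding genes. By gene against the same background, GCATGCG was in 7.89% against 6.95%, TATAAA in 7.89% against 9.20% and CCAAT in 36.8% against 43.0%. The GCATGCG and TATAAA shares rest on 3 member genes each. The median G and C content was 59.0% in the windows of these genes, against 60.3% for detected protein-coding genes. A match describes letters and is not evidence of binding.

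The 250 bases before the start are shown for 3 genes that hold these letters, with TGACNNNGC, CCGGAAG and GGGCGG on either strand in capitals. Psmc6 (GRCm38.p6, chr14:45329574-45329823, plus strand) holds all 3, with CCGGAAG 100 bases before the start and directly before a GGGCGG. Psme4 (chr11:30771525-30771774, plus strand) holds CCGGAAG 53 bases before the start, sharing its first letter with a GGGCGG on the other strand. Psmb5 (chr14:54617996-54618245, minus strand) holds 1 TGACNNNGC, 47 bases before the start, and no CCGGAAG.
Psmc6: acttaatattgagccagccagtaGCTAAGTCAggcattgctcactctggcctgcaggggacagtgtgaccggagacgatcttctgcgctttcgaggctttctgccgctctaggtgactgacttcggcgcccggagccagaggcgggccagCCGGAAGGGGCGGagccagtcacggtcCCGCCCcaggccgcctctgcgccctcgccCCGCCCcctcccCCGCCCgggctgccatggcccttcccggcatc
Psme4: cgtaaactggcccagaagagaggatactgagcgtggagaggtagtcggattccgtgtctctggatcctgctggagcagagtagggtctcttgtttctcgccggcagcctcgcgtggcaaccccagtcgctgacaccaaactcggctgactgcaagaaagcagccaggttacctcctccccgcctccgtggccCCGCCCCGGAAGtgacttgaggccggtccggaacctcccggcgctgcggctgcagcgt
Psmb5: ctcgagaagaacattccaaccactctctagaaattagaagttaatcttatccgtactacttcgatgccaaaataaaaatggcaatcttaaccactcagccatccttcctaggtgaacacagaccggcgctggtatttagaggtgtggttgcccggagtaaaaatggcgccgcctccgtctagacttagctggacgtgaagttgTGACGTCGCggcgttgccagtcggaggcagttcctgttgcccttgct
Psmc6 had the lowest level per length of the 6 ATPase genes, at 46.0 RPKM, and Psmb5 the 6th highest of the 8 beta genes, at 25.7 RPKM. By reads alone and per kilobase of coding sequence, Psmc1 and not Psmc6 was the lowest ATPase gene. A link between these letters and the levels was not tested.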

How the data were processed

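RNA sequencing of 1 library labelled normal fibroblast was analysed; per the labels' protocols it was extracted with TRIzol and prepared by SOLiD protocols. The authors deposited 1 signal value per gene, a normalised count. The submitters' processing notes name DESeq and mm10 without a role; aligner, counting, strand setting and filters were not given in the sources used here. All 20976 values above 0 were whole multiples of 1.176 within 0.006, so whole reads were recovered (size factor 0.850; total 52494688). The design had assumed no unit, and its descriptive measures were run on these reads. A count test needs replicates and was not run.

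Rows with copy suffixes (1073) were summed with their genes, leaving 23386. Lengths are unions of exons of the GENCODE M21 transcripts linked to each row's RefSeq accessions (97.5% of protein-coding genes, all 46 members). The union of all exons of a gene, used as an alternative, was up to 3.36 times longer for members (median 1.64), since it takes in retained introns. Coordinates are RefSeq, GRCm38.p6, 1-based. Log2 values use a pseudocount of 0.5. The members and lists were chosen with earlier results of these data known. Every member is named; of other lists, leading and lowest members are. Some list members are not reported here. A single read is 0.0190 reads per 1000000. The recovery was tested on simulated data. Scripts ran in Python 3.11.15 with Biopython 1.88, scipy 1.17.1, numpy 2.4.6, matplotlib 3.10.9 and pandas 2.3.3.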

Additional observations from a re-analysis of the deposited data

How the results depend on the processing

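A single library leaves no replicate to omit. No paired analysis was possible because only 1 library was analysed. The counts of detected members (43 to 46) and of members above the median (34 to 44) stayed within 1.5 times under every alternative run. The difference between the medians of members and detected genes was 1.76 without division by length, 2.15 with all exons, 2.02 with coding length (added after the data were seen), 3.63 and 2.14 against genes of at least 1 and 50 reads, 2.01 with a pseudocount of 5 and 2.61 without Psmc3ip, Psma8 and Psmb11. The difference between 20S and 19S was -0.81 without length, -0.48 with all exons, -0.060 with coding length and -0.21 without shared windows; it turned to 0.0074 without Psmc3ip, Psma8 and Psmb11, and to 0.035 without these and the members rich in shared windows (both settings on shared windows were also added). The log2 ratio of standard to inducible catalytic genes was 2.65 without length, 2.63 with all exons, 4.46 from medians, 2.72 with coding length and 3.41 without shared windows (both added). Without length, with all exons and with coding length, the differences from other complexes were -2.08, -1.68 and -1.58 for the CCT chaperonin, -0.18, -0.58 and -0.21 for eIF3, -0.015, 0.43 and -0.28 for the COP9 signalosome, and 0.46, -0.26 and -0.84 for the ribosome. The cause was not tested beyond the lengths and members these settings change. Depth limits Psma8, at 2 reads, and Psmb11, at 12.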

Other observations

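Uba1, the main ubiquitin-activating enzyme, which starts the marking of proteins for the proteasome, had 105 RPKM, against 14.6 RPKM for its relative Uba6.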
